A study of Mus musculus with 3 samples.

Results

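The 6 genes described here belong to the channel families that connect cells or open to the outside, and were followed in imLECs, an immortalized line of lymphatic endothelial cells from mouse skin. They are the connexins Gja1, Gja4, Gja5, Gjb2 and Gjc1 and the pannexin Panx1. They were found as all probe sets that the platform annotation gives to these symbols, which are 12 probe sets for 6 of the 18194 genes measured. The cells come from H-2Kb-tsA58 mice (ImmortoMice), and were purified by FACS. In these mice a heat-labile form of the SV40 large T antigen is driven by the H-2Kb promoter, which interferon induces. The cells were grown at 33 °C with 1 unit/ml of interferon-gamma, then kept for 3 days at 37 °C without it, a step meant to let the T antigen degrade. There is 1 culture and 1 Affymetrix array each at passages 13, 14 and 18, all treated alike, and no untreated, primary or other control culture was analysed here. The labels do not say whether the cultures go back to 1 isolation.

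Connexins are membrane proteins that assemble into hemichannels, and hemichannels of neighbouring cells dock into gap junctions that pass ions and small metabolites. Which connexins a cell makes differs by tissue. Endothelium is known for Gja1 (Cx43), Gja4 (Cx37) and Gja5 (Cx40), and in mouse lymphatic vessels Gja1 and Gja4 take part in the forming of valves. Pannexins do not usually dock, and Panx1 is best known as a channel that releases ATP.

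Values are signal intensities on the linear scale of the deposited table, or their log2. A probe set was called above the floor on an array where it exceeded the 95th percentile of 39 genes of other tissues, and a gene was called detected where its brightest probe set passed on all 3 arrays. That floor stood at 51.8 units on the passage 13 array, 53.4 on the passage 14 array and 70.2 on the passage 18 array. A value under the floor gives only an upper limit, and intensities of different probe sets are not compared with each other. Of all genes 8563, or 47.1%, were detected. The passage 18 array stood apart in its Gapdh control, with 19.4 times as much 3' as 5' signal, beside 8.59 times at passage 13 and 7.10 times at passage 14. Its Actb ratio of 1.42, beside 1.18 and 1.20 at passages 13 and 14, differed far less. Of the markers of the labelled cell type, 6 of 6 pan-endothelial and 7 of 8 lymphatic endothelial ones were detected, with Prox1, the master regulator of lymphatic fate, above the floor at passage 13 alone (73.4, 34.5 and 48.5 at passages 13, 14 and 18). That call depends on the floor. Without probe sets ending in _s_at, _x_at or _a_at the floors were 19.1, 26.9 and 21.4, and Prox1 lay above each of them. The endothelial markers also differed between cultures, and the 7 detected lymphatic ones follow at passages 13, 14 and 18. Lyve1 read 1375, 2929 and 163, Pdpn 4615, 1933 and 3715, Flt4 2039, 1869 and 920, and Nr2f2 1427, 1226 and 1440. Sox18 read 599, 1236 and 235, Foxc2 783, 267 and 955, and Nrp2 1067, 882.5 and 564. Of the 7 detected lymphatic markers 3 were at least 2-fold lower at passage 18 than at 13, beside 1.79% of all detected genes, and all 6 pan-endothelial markers were lowest at passage 18.

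Of the 6 genes 3 were detected, Gja1, Gjc1 and Panx1, a share near the 47.1% of all genes. The other 3, Gja4, Gja5 and Gjb2, lay below the floor on every array. Gja1 was the one detected member whose brightest probe set read in the order of passage, highest at passage 18, and Gjc1 and Panx1 were both highest at passage 14. None of the 3 differed 2-fold between any cultures by its brightest probe set, and none passed the test for a trend with passage.

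**Figure D1:**
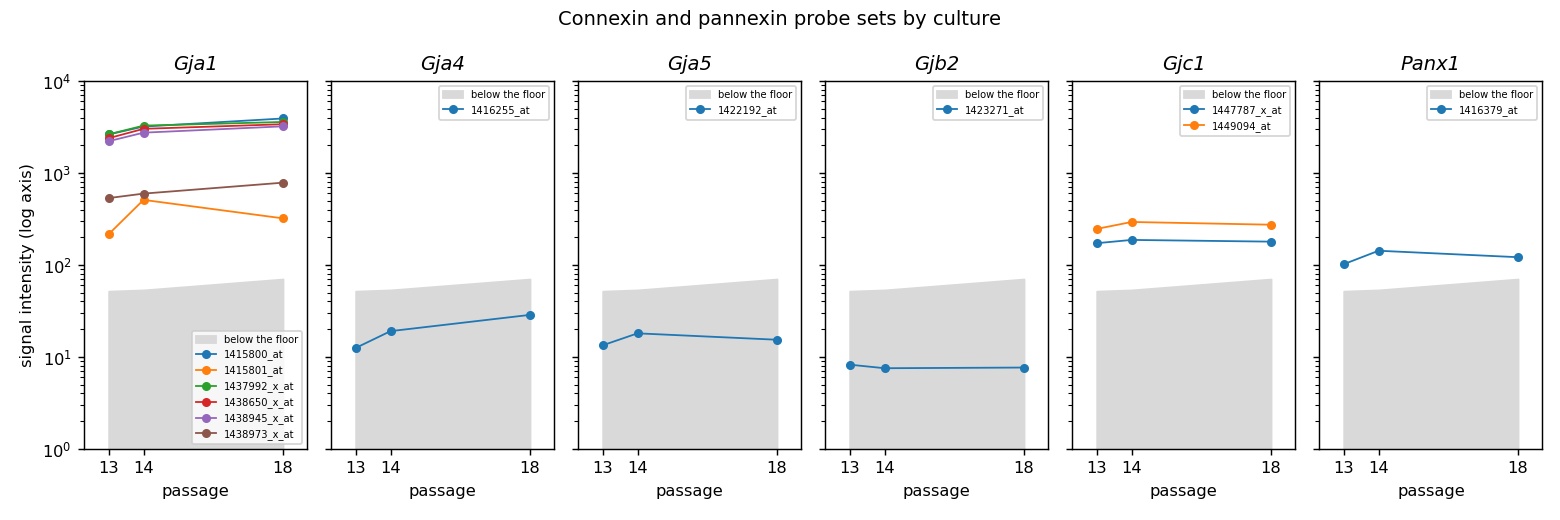
Signal intensity (log axis) of each probe set of the 6 genes at passages 13, 14 and 18, with 1 culture per point and the floor of each array as the top of the grey area. All Gja1, Gjc1 and Panx1 probe sets lie above the floor, and those of Gja4, Gja5 and Gjb2 lie within the grey area on all 3 arrays.

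Promoter sequences are shown for a pair of endothelial connexins. Gja1 was above the floor on every array, and Gja5 was below it on every array, as were Gja4 and Gjb2. The sequences are RefSeq promoter windows of build GRCm38.p6, from 250 bases before to 50 bases after the annotated start. Capitals mark matches to the 4 motifs searched, on both strands. The AP-1 motif was TGANTCA. The GC box was spelled GGGCGG. The TATA box was searched as TATAAA. The forkhead motif was TAAACA.
Gja1, chr10:56377050-56377349, plus strand: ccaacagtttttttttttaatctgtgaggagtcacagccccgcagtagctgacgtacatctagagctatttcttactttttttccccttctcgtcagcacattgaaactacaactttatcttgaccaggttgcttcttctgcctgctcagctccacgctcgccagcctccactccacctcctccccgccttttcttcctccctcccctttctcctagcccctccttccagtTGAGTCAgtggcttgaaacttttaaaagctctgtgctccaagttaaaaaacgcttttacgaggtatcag
Gja5, chr3:97032152-97032451, plus strand: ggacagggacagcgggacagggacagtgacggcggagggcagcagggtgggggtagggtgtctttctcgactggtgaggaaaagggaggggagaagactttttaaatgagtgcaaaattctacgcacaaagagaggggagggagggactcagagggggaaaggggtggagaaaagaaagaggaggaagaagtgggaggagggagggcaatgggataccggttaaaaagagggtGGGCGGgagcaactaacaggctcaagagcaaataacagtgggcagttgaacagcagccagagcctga
The Gja1 window held 1 AP-1 match, which begins at position -19 from the start, and the Gja5 window 1 GC box match, at -17. No matches overlapped. Among the 32851 promoter windows searched, 7.81% held the AP-1 motif, 35.7% the GC box, 13.6% the TATA box and 13.4% the forkhead motif. Of the other windows that could be searched, Gja4 had 1 GC box match, Gjb2 had 2 and Panx1 had none of the 4 motifs. AP-1 is a dimer of Jun and Fos proteins. These matches describe letters in the sequence, and whether any factor binds there was not measured.

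Gja1 encodes Cx43, the most widespread connexin of mammalian tissues. Its brightest probe set read 2625 at passage 13, 3197 at passage 14 and 3915 at passage 18, a log2 level of 11.65 ± 0.29 (SD, n = 3). On each array that is at least 50.6 times the floor. The passage 18 culture was highest and the passage 13 culture lowest. The passage 18 culture was 1.49-fold above passage 13 and 1.22-fold above passage 14, and passage 14 was 1.22-fold above passage 13. The fitted slope was 0.10 ± 0.043 log2 units per passage, which did not pass (limma adjusted p = 0.891). The SE of slopes here is limma's moderated one, which also draws on the spread of other genes. The order of Gja1 was shared by 12.2% of the detected genes. Across the 3 cultures its SD of 0.29 compares with a median SD of 0.24 over all detected genes, and 61.1% of them had a smaller SD.

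Gja1 has 6 probe sets, all above the floor on all 3 arrays, and they do not all give the same picture. Of these, 5 gave the order of the brightest one. The probe set 1437992_x_at read 2632, 3273 and 3587 at passages 13, 14 and 18. For 1438650_x_at the values were 2388, 3021 and 3390, and for 1438945_x_at they were 2216, 2744 and 3215. The dimmer 1438973_x_at read 533, 596 and 784 in the same order. These 4 end in _x_at, a mark of probes open to cross-hybridisation. Over the 5 probe sets, passage 18 was between 1.36-fold and 1.49-fold above passage 13, and passage 14 was between 1.12-fold and 1.27-fold above it.

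The remaining one, 1415801_at, is not of the _x_at kind and comes from the same source sequence as the brightest one. It read 216 at passage 13, 510 at passage 14 and 321 at passage 18, so that the passage 14 culture was highest. By this probe set passage 14 was 2.36-fold above passage 13. Of the probe sets given to a single gene that passed the floor on every array, 1.67% were higher by 2-fold or more. By 1415801_at, passage 18 was 1.49-fold above passage 13 and 0.629 times passage 14. All 6 probe sets thus read higher at passage 18 than at 13 and higher at 14 than at 13, and 5 of 6 read higher at passage 18 than at 14. Passage 18, where 5 Gja1 probe sets read highest, was lowest for 4 of the 7 detected lymphatic markers given above and highest for 2. Lyve1 and Flt4 were among the former, and Nr2f2 and Foxc2 were the latter. The step between the cultures of passages 14 and 18 differs in direction between the probe sets of the gene. What the probe sets report on along the transcript is not given in the files, and the part of the passage 18 array's Gapdh 3'/5' ratio of 19.4 in these differences was not tested.

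Gjc1 encodes Cx45, a connexin of the early heart and of smooth muscle. Its brightest probe set read 246 at passage 13, 293 at passage 14 and 274 at passage 18 (log2 8.08 ± 0.13, SD, n = 3). The second, 1447787_x_at, read 172, 187 and 179 in the same order of cultures. Both were above the floor on all 3 arrays and both were highest at passage 14 and lowest at passage 13. Gjc1 varied little, with an SD smaller than that of most detected genes: 21.4% had a smaller one. By the brightest probe set passage 14 was 1.19-fold and passage 18 was 1.11-fold above passage 13. The slope with passage was 0.01 ± 0.066 (moderated SE, n = 3, limma adjusted p = 0.975), and it changed sign, to -0.02, without the passage 13 culture.

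Panx1 has a single probe set, which read 102 at passage 13, 143 at passage 14 and 121 at passage 18 (log2 6.92 ± 0.24, SD, n = 3). The signal was close to the floor, at 1.96, 2.67 and 1.73 times the floor of its array. As with Gjc1, the passage 14 culture was highest and passage 13 lowest, an order that 10.4% of the detected genes had. Passage 14 was 1.40-fold and passage 18 was 1.19-fold above passage 13. The slope was 0.02 ± 0.081 (moderated SE, n = 3, limma adjusted p = 0.973), and it was -0.06 without the passage 13 culture. With the floor at the 99th percentile Panx1 was above it on 1 of 3 arrays, and its detection was lost.

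Gja4 encodes Cx37, a connexin of arterial endothelium and of the lymphatic valve. Its single probe set read 12.5, 19.0 and 28.6 at passages 13, 14 and 18, which is 24.1%, 35.6% and 40.8% of the floor. Gja5 encodes Cx40 of arterial endothelium and of the heart's atria and conduction system. Its probe set read 13.4, 18.0 and 15.4, at most 33.7% of the floor. Gjb2 encodes Cx26, a connexin of epithelia, among them the inner ear and skin. Its probe set read 8.22, 7.52 and 7.65, at most 15.9% of the floor. No order of cultures is read from these values. Each of the 3 genes rests on 1 probe set, so a probe set that works poorly and a transcript that is scarce cannot be told apart. None of the 3 came above the floor on any array with the floor at the 90th percentile. With probe sets ending in _s_at, _x_at or _a_at left out, the floors were lower. Gja4 at 28.6 then lay above the passage 18 floor of 21.4, but not above those of 19.1 and 26.9 at passages 13 and 14.

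Between pairs of cultures the 3 detected members stayed within 2-fold by their brightest probe sets. Passage 14 differed from passage 13 by 2-fold or more in 4.73% of detected genes, passage 18 from passage 13 in 3.90% and passage 18 from passage 14 in 11.3%, while the members' count was 0 of 3 in each pair. Over all 3 pairs 13.4% of detected genes reached 2-fold at least once, so a count of 0 among 3 genes lies near the background. The members' median log2 difference was 0.28 for passage 14 minus 13, 0.25 for 18 minus 13 and -0.10 for 18 minus 14, beside -0.02, -0.002 and 0.02 over all detected genes. In the trend test 0% of the 9284 genes tested were called (limma, 0 genes, and 315, or 3.39%, with an unadjusted p under 0.05), with 1 residual degree of freedom per gene, so the missing calls do not show that levels were equal.

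**Figure D2:**
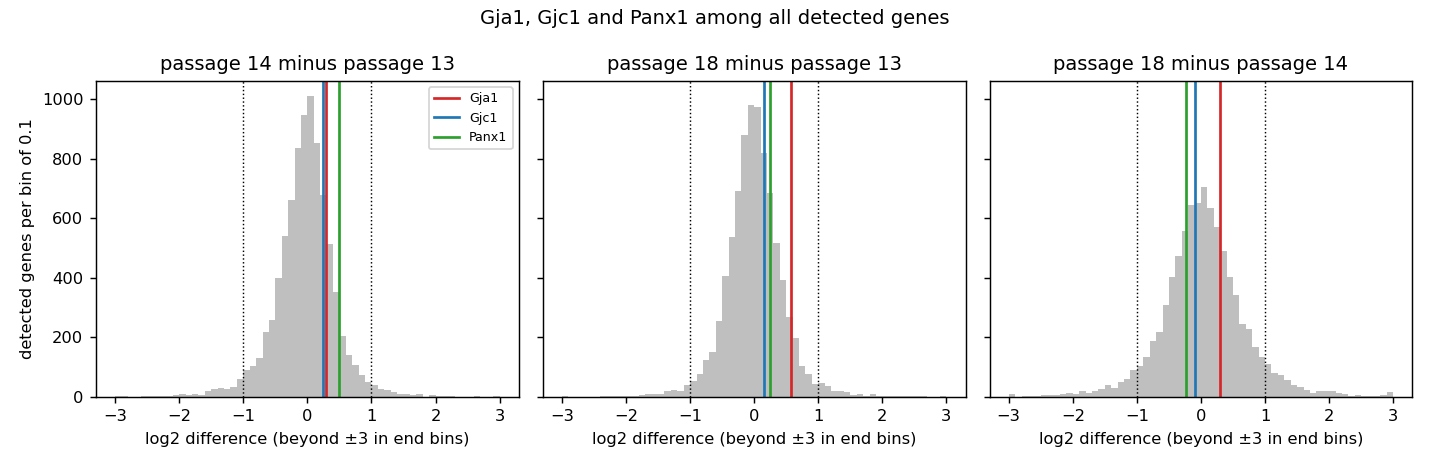
Histograms of log2 differences between cultures over the 8563 detected genes, in the pairs passage 14 minus 13, 18 minus 13 and 18 minus 14, with coloured lines at the values of Gja1, Gjc1 and Panx1 and dotted lines at 2-fold. All 3 genes lie inside the dotted lines in each pair, and Gja1 is the one to the right of 0 in all 3 pairs.

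The other family members were almost all below the floor. Of 11 further connexins and pannexins with a value, 0 were detected, beside 47.1% of all genes. Of them 10, Gja3, Gja10, Gjb1, Gjb6, Gjc3, Gjd2, Gjd4, Gje1, Panx2 and Panx3, were below the floor on all 3 arrays, at intensities between 3.27 and 28.4. The exception was Gjb5 (Cx31.1), a connexin of keratinocytes, which was singled out after its values were seen. Its 1 probe set read 55.3 at passage 13, 18.6 at passage 14 and 231 at passage 18, so it passed the floor at passages 13 and 18 but not at 14. Passage 18 was 4.18-fold above passage 13 and at least 4.33-fold above passage 14, taking the floor of that array as the upper limit. Its trend did not pass (limma adjusted p = 0.891).

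Of 5 keratinocyte markers measured, Krt10 was detected, at 133, 81.5 and 117 at passages 13, 14 and 18, and the summed intensity of the list was 216, 163 and 201. Both are lowest at passage 14, as Gjb5 is, and highest at passage 13, where Gjb5 is not. The sum contains Krt10 itself, so its order is not a separate observation. Of the others, Krt14, Krt1 and Cdh1 did not reach the floor on any array, and Krt5 was above it at passage 13 alone. The summed intensities of the fibroblast list (5 of 8 detected) were 3367, 1944 and 4489, and those of the list for mural cells and smooth muscle (3 of 6 detected) were 6164, 1071 and 7318. Both sums are lowest at passage 14 and highest at passage 18, as Gjb5 is, but their detected members differ. Col1a1, Col6a1, Acta2 and Pdgfrb had the order of the sums, and Col3a1 read 199, 203 and 776. Tagln, Thy1 and Fbln1 were highest at passage 13, with Tagln at 4535, 619 and 1756. Fibroblasts and smooth muscle also make Gja1. In these lists Pdgfra, Dcn, Lum, Cspg4, Myh11 and Des stayed below the floor throughout. The leukocyte list (0 of 6 detected) had summed intensities of 404, 397 and 151, lowest at passage 18. Cd53 (244, 121 and 64.6) and Cd68 (127, 244 and 58.2) were above the floor at passages 13 and 14. Ptprc, Itgam, Cd3e and Cd79a were below it on all arrays. The part of other cell types in the Gja1 and other connexin values was not tested, and in bulk RNA more cells of a type and more RNA per cell cannot be told apart.

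Proteins that bind, modify or clear Cx43 were detected in 10 of 10 measured genes, beside 47.1% of all genes, and 0 passed the trend test in either direction. Tjp1 (ZO-1), the scaffold that binds the tail of Cx43, read 10.69, 10.85 and 10.37 on the log2 scale at passages 13, 14 and 18. Drebrin, Dbn1, an actin-binding partner of Cx43, read 7.73, 7.39 and 7.64. The ubiquitin ligases Nedd4 and Smurf2, which act in Cx43 turnover, read 12.14, 12.08 and 12.01 for Nedd4 and 12.07, 11.89 and 11.18 for Smurf2. The list had no common order: 5 of the 10 genes were lowest at passage 18, 4 at passage 14 and 1 at passage 13. One gene of this list reached 2-fold, Ccn3, a matricellular protein that binds Cx43, named here after its values were seen. It read 8.23, 9.21 and 7.02, with passage 18 at 0.431 times passage 13 and 0.219 times passage 14, by a probe set open to cross-hybridisation. The median log2 difference over the 10 genes was -0.08 for passage 18 minus 13, and 3 of 10 were higher at passage 18, beside 49.2% of all detected genes.

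Of the genes of extracellular ATP signalling around Panx1, 2 of 7 measured were detected, beside 47.1% of all genes, and neither passed the trend test. Entpd1 (CD39), the ectoenzyme that breaks down ATP and ADP, read 11.48, 11.28 and 10.62 on the log2 scale at passages 13, 14 and 18. The ATP-gated channel gene P2rx4 read 7.71, 7.02 and 7.73. Panx1 was highest at passage 14, where P2rx4 was lowest. The receptors P2rx7, P2ry1, P2ry2 and P2ry6 and the 5'-nucleotidase Nt5e (CD73), which makes adenosine from AMP, did not reach the floor on any array. With the lower floors that hold without probe sets ending in _s_at, _x_at or _a_at, P2rx7 and Nt5e passed on all arrays. P2ry6 then passed at passages 13 and 18, and P2ry1 on none. The count of 2 of 7 therefore depends on the floor.

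Genes of the lymphatic valve programme, in which Gja4 and Gja1 take part in mice, were detected in 9 of 11 cases, beside 47.1% of all genes, while Gja4 itself was not detected. Foxc2, a forkhead factor of valve formation, read 9.61, 8.06 and 9.90 on the log2 scale at passages 13, 14 and 18. Gata2 read 8.41, 8.20 and 8.62, Nfatc1, the calcineurin-dependent factor, 7.09, 6.93 and 7.59, and the shear-responsive Klf2 7.13, 7.52 and 7.11. Foxc2, Gata2 and Nfatc1 were lowest at passage 14 and highest at passage 18. Of the 9 detected genes 7 were higher at passage 18 than at 14, beside 52.0% of all detected genes, 3 of them by 2-fold or more, where 6.50% of detected genes were, and 0 of 9 passed the trend test. Itga9, an integrin of valve leaflets, was below the floor on all arrays.

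**Figure D3:**
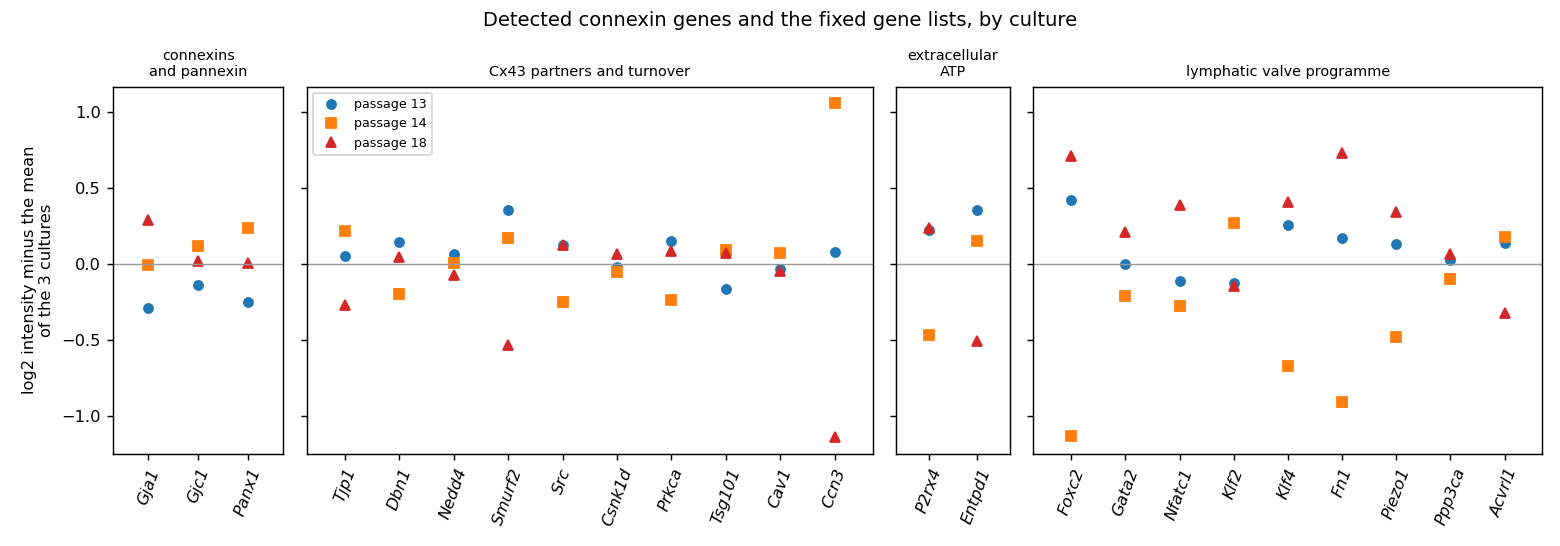
Log2 intensity minus the mean of the 3 cultures for each detected gene of the connexin and pannexin set and of 3 gene lists, with a symbol per culture (passages 13, 14 and 18). Gja1 reads lowest at passage 13 and highest at passage 18, Gjc1 and Panx1 are highest at passage 14, and Ccn3, Foxc2 and Fn1 spread widest.

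Proliferation genes had the passage 14 culture on top, as Gjc1 and Panx1 did, and by larger steps, but were lowest at passage 18, where Gjc1 and Panx1 lay above passage 13. All 5 detected proliferation genes were at least 2-fold higher at passage 14 than at 13, as 1.80% of all detected genes were, with Mki67 at 7.78, 9.35 and 7.30 on the log2 scale at passages 13, 14 and 18 and Ccnb2 at 8.32, 10.08 and 7.47. Top2a read 8.18, 9.56 and 7.68, and Cdk1 9.03, 10.11 and 8.25. Plk1 and Bub1 were above the floor on 2 arrays each. The part of growth state in the connexin and pannexin values was not tested.

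With 3 cultures, likeness of profile picks out little. By Euclidean distance between log2 profiles centred on their own mean, over the 3 cultures, the detected genes closest to Gja1 were Hace1 (distance 0.019), Fmnl2 (0.022) and Pwwp3b (0.035). The closest to Gjc1 were Snapin (0.0024), Pitpnb (0.0067) and Smarcd2 (0.0074), and to Panx1 they were Atpaf1 (0.0096), Cad (0.012) and Ptpn2 (0.014). Within a distance of 0.2 lay 433 genes around Gja1, 1510 around Gjc1 and 591 around Panx1, of 8562 compared. Gjc1 and Panx1 were themselves 0.17 apart, and Gja1 was 0.33 from Gjc1 and 0.38 from Panx1.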

How the data were processed

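The deposited table holds signal intensity values on a linear scale, 1 per probe set and array, for 45101 probe sets. The submitters' processing notes name MAS5, without role or version. What else the authors did to the deposited values is not stated in the labels. Array medians lay between 25.7 and 26.3, so the values were not normalized again. The platform annotation gave 1 gene to 34958 probe sets, whose symbols were updated through Entrez identifiers to RefSeq (GRCm38.p6, 34754 matched). Of several probe sets of a gene, the one brightest on average (mean log2) stood for it.

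The floor came from 42 hand-listed genes of other tissues (39 measured). Of these, Apoa2 was itself detected. A line over passage number was fitted by limma 3.58.1 under R 4.3.3, with lmFit and then eBayes (trend = TRUE). The 9284 genes with a mean above the mean floor entered, with Benjamini-Hochberg adjustment and a threshold of 0.05. The step was tested on simulated data. P-values and the SE of slopes use the spread among these 3 cultures, moderated by limma toward a spread fitted over all genes tested. No other cultures enter, and their number limits precision. Pairs of cultures have no replicate and no test.

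The members and gene lists were chosen with earlier results of these data known. Named are all 6 members, detected members of their family and the 3 closest profiles. Of other lists the first 4 detected and first 2 undetected genes are named. Beyond these come genes said to be chosen after their values were seen, or grouped with their list. Markers of cell types did not follow that order: lymphatic ones are all named, and pan-endothelial ones are given as counts. Alternatives covered the floor, the probe set rule, normalization, a pseudocount of 16, the filter, the threshold and each culture left out. RefSeq promoter windows were matched by symbol for 5 of the 6 members, not for Gjc1.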

Additional observations from a re-analysis of the deposited data

How the results depend on the processing

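Over 8 alternatives, 47 of the 48 detection calls of the 6 genes held, the exception being Panx1 with the floor at the 99th percentile (above it on 1 of 3 arrays). Leaving out a culture kept the same floors, and each gene was above them on all 3 arrays or on none. Those alternatives could therefore not change a call, and only the others bear on it. The number of detected genes ran between 6434 and 9752. Without probe sets ending in _s_at, _x_at or _a_at, the floors fell to 19.1, 26.9 and 21.4 at passages 13, 14 and 18. Calls of genes outside the 6 moved with them. Prox1, Krt5, Des, P2rx7 and Nt5e were among those then above the floor on all 3 arrays. No gene passed the limma trend under any of the 8 alternatives, with unadjusted p under 0.05 in 321 to 697 genes and the smallest adjusted p between 0.619 and 0.945. The Gja1 slope stayed positive under every alternative and ran between 0.07 and 0.28 with single cultures left out, the highest without passage 18. Without 1 culture the Gjc1 slope ran between -0.02 and 0.25 and the Panx1 slope between -0.06 and 0.49. Both were negative without passage 13 (-0.0247 and -0.0583), since passage 14 was highest. All 36 alternative values of the members' pairwise differences kept their direction, but some of them could not move. Panx1 has 1 probe set, so the rule for choosing among probe sets left its differences unchanged. Gja1 and Gjc1 kept their brightest probe set when those ending in _s_at, _x_at or _a_at were dropped. Single probe sets were not among these alternatives for pairs. By 1415801_at the Gja1 difference for passage 18 minus 14 was -0.668 on the log2 scale, against 0.292 by the brightest one. With a threshold of 1.5-fold, 1369, 1230 and 2479 genes differed for passage 14 minus 13, 18 minus 13 and 18 minus 14, against 405, 334 and 970 at 2-fold, by construction. The second list of floor genes was not run, because it served as the main one. No paired analysis was possible because there is 1 group. Depth does not apply to arrays. Signal over the floor limits Panx1, and Gja5 and Gjb2 have only upper limits. So has Gja4 except at passage 18 without probe sets ending in _s_at, _x_at or _a_at, where it passed the lower floor.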
